A study of Mus musculus with 1087 samples.

Results

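The cells compared here are hematopoietic cells of mouse embryos at E11.5 that the authors placed in class HC1 and cluster 8 of their clustering without CD27+ cells. Hematopoietic is read here from markers given at the end, since the labels do not spell out HC1. The cells were split by the level of a Gata2 reporter: 39 cells came from the gate G2VInt (intermediate Venus) and 92 from the gate G2VLo (low Venus), 131 of the 1087 cells of the series. Class, cluster and gate were all taken from the labels, and no ratio between the gates was used to pick cells. The clusters are the authors' groupings of these same cells, so membership cannot be taken as independent of the levels compared. Each sample of the series is 1 cell, sequenced from the aorta-gonad-mesonephros (AGM) region, with the trunk part of the vitelline and umbilical arteries. All embryos were Gata2V/+, with 1 reporter allele from a Gata2V/V father and 1 allele from a wild-type C57BL/6HsdJOla mother, so both gates carry the same genotype. The labels name the cells as IAHC cells (intra-aortic hematopoietic cluster cells) and as high for Kit. The tissue was digested with collagenase, and live cells were gated on Venus and on antibody staining for CD31, cKit and CD27. Beside the comparison stand 4 other sets: the same gates in HC1 cluster 7 (63 G2VInt and 71 G2VLo cells), G2VInt cells of HC1 cluster 8 at E10 (36 cells) and E11 (31 cells), and 69 E11.5 cells sorted as CD27+ that lay in cluster 8 of the authors' clustering of all cells. Venus levels of the CD27+ cells are not stated in the sources used here.

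GATA2 is a zinc finger transcription factor that embryos need to form hematopoietic stem cells (HSCs) from the endothelium of the aorta and to keep them afterwards. The cells that bud from this endothelium gather in small clusters on the vessel wall, carry the receptor Kit on their surface, and divide while they mature. The Venus protein reports the activity of the Gata2 locus, and a long-lived fluorescent protein can lag behind the messenger RNA. HSCs mature in the AGM at about this stage, and CD27, a receptor of the TNF receptor family, appears on the surface of early HSCs.

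Cluster 8 held 39 of the 279 G2VInt cells (13.98%, exact Clopper-Pearson 95% interval 10.1 to 18.6) and 92 of the 472 G2VLo cells (19.5%, 16.0 to 23.4). In the authors' clustering of all cells, 28 of these 39 (71.8%, 55.1 to 85.0) and 83 of these 92 (90.2%, 82.2 to 95.4) were also in a cluster 8. The gates differed in depth: a cell had a median of 1446324 reads on genes in G2VInt (620244 to 4425994) and 466202.5 in G2VLo (159181 to 1019502). At an equal depth of 100000 reads, a median cell had a read for 8116 and 7062.5 genes. Mitochondrially encoded genes took a median of 2.55% of a cell's reads in G2VInt (1.53 to 4.40) and 5.93% in G2VLo (3.75 to 13.7). Library numbers in the sample names also separate the gates: each gate has a range of numbers of its own, so gate, depth and library block cannot be told apart. No embryo, litter or sorting day is named in the labels. Each gate is therefore 1 sample, no test was possible and no p-value is given. Values are reads summed over the cells of a gate and expressed as CPM (reads of a gene scaled to a common total). The 95% intervals are exact Poisson intervals for a level, an exact conditional binomial interval for a ratio and exact Clopper-Pearson intervals for a share of cells. They cover counting error only, not the spread between embryos. PCR copies, which could not be removed because no molecular identifiers are mentioned, make them too narrow.

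A gene was measured where it reached 10 CPM in 1 gate and was read there in no fewer than 5% of the cells. Of 9849 such genes, 321 (3.26%) were at least 2-fold higher in G2VInt and 170 (1.73%) at least 2-fold lower. Over all measured genes, the log2 ratio of G2VInt over G2VLo had a median of 0.14 (quartiles -0.12 and 0.40), and gene lists are given relative to it. Of the genes past 2-fold, 65.4% were higher in G2VInt, but only 48.4% with TMM scaling (220 higher and 235 lower), which moved the median of all genes by -0.11. Most measured genes lay within 2-fold in the plot of both gates. The genes described below fell into 2 large groups, genes of G2 and mitosis on the side of G2VInt and immediate-early genes on the side of G2VLo, beside single genes with larger ratios.

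**Figure D1:**
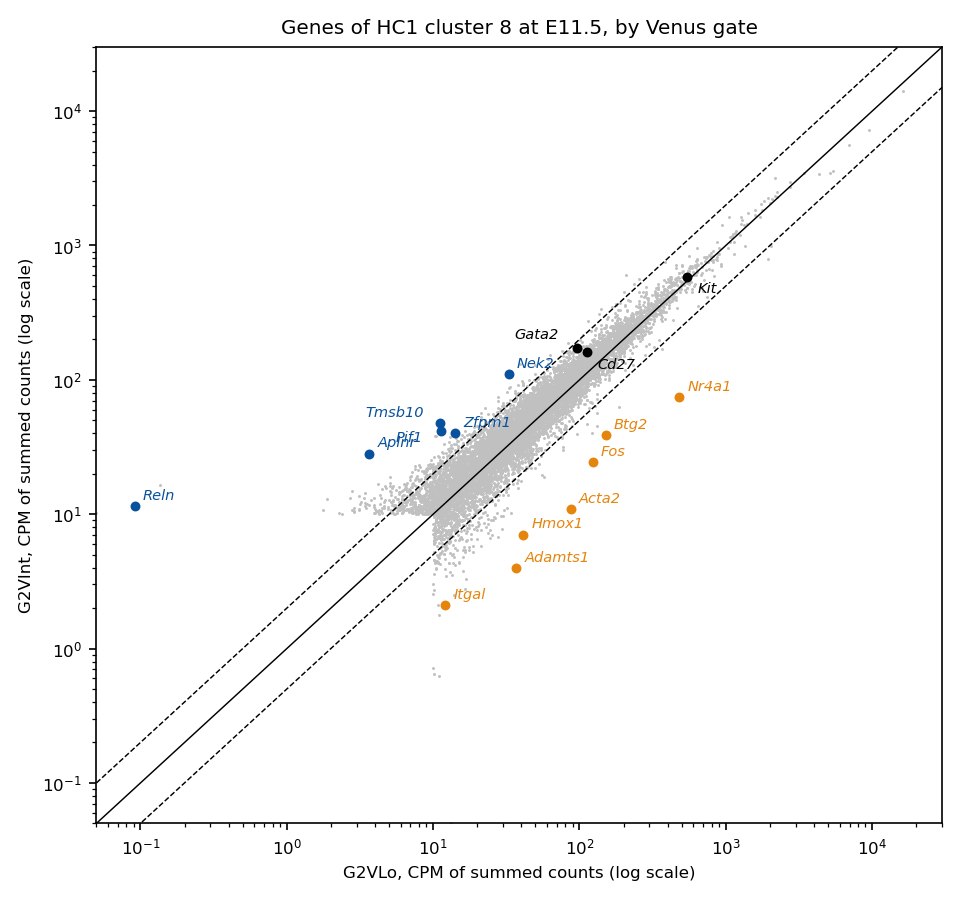
Summed expression of each measured gene in HC1 cluster 8 at E11.5, as CPM in G2VLo (x axis) and G2VInt (y axis), both on log scales; the solid line marks equal levels and the dashed lines 2-fold differences. Kit and Gata2 lie within 2-fold, Reln lies far to the left with 0.0912 CPM in G2VLo, and Nr4a1, Fos and Btg2 lie below the lower dashed line.

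Promoters of the 2 groups are shown first, because the genes of each group are known to share short motifs near their start. Promoter sequences are from RefSeq on GRCm38.p6, and motifs were searched on both strands in the 250 bases before the annotated start. The CCAAT box, bound by NF-Y and common in promoters of mitotic genes, was searched as CCAAT and was found in 40 of the 51 G2 and mitosis genes that have a promoter in the table (78.4%; 9 of the 60 listed genes had none). It was present in 37.5% of all 27025 genes with a promoter in the table and in 40.8% of the 7830 of them measured in either cluster. A gene was counted where any promoter listed for it held the letters. The letters TTTGAA, a form of the cell cycle homology region, were present in 19 of the 51 (37.3%). They were present in 18.3% of all genes with a promoter and in 12.4% of the measured ones. Among the 39 S phase genes with a promoter, 5 held these letters (12.8%), while 24 held the CCAAT box (61.5%). The box was thus frequent in the S phase list as well. The 4 windows that follow are the 180 bases before the start of Nek2 (chr1:191821293-191821472, plus strand), Aurka (chr2:172370571-172370750, minus strand), Cenpa (chr5:30666706-30666885, plus strand) and Kif18b (chr11:102925125-102925304, minus strand), 4 genes of mitosis past 2-fold, each written 5′ to 3′ along its gene with the CCAAT box in capitals (ATTGG where it lies on the other strand).
Nek2: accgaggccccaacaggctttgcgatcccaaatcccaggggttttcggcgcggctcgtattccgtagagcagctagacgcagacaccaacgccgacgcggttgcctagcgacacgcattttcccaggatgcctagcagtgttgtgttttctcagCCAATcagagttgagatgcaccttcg
Aurka: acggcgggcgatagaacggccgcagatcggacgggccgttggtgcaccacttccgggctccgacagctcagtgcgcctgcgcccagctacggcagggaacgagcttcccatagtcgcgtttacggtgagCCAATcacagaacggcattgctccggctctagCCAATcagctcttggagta
Cenpa: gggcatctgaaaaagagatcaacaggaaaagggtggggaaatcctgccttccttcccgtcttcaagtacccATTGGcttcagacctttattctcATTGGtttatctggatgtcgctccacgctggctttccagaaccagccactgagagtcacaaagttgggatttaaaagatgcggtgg
Kif18b: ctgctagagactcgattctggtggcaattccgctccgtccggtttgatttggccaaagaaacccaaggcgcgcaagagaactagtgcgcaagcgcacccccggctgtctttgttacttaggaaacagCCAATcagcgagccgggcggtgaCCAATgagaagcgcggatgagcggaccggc
The first base of the box lies 26 bases before the start of Nek2, 51 and 19 before that of Aurka, 109 and 86 before that of Cenpa and 53 and 30 before that of Kif18b. Distances are counted from the RefSeq start, which follows directly on each window; the gene coordinates given below are from GENCODE, and those of Nek2 begin inside its window, upstream of the box. Copies thus came as a pair in 3 of the 4 windows. A match is a description of the sequence and does not show that a factor was bound there.

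For the immediate-early genes, which many extracellular signals switch on through CREB and SRF, the full cAMP response element TGACGTCA was searched. It was found in 3 of the 25 listed genes with a promoter in the table (12%), and 5 of the 30 listed genes had none. The element was present in 1.77% of all genes with a promoter and in 3.27% of the measured ones. CCAAT was found in 10 of these 25 (40%), close to its share among all genes. The 180 bases before the start of Btg2 (chr1:134079156-134079335, minus strand) and Dusp1 (chr17:26508473-26508652, minus strand), both past 2-fold in the opposite direction, are shown with the element in capitals.
Btg2: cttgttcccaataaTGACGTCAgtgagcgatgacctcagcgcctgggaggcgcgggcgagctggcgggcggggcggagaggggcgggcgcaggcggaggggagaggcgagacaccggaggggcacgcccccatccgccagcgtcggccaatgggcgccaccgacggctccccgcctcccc
Dusp1: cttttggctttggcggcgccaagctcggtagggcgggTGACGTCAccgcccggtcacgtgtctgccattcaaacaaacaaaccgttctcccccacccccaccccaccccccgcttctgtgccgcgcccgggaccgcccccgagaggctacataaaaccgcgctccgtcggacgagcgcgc
The element begins 166 bases before the start of Btg2 and 143 bases before that of Dusp1.

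Genes of G2 and mitosis were higher in G2VInt cells of cluster 8 almost without exception. Of 60 listed genes, 58 were measured, and 57 of these lay above the median of all genes. Their median log2 ratio was 0.76 relative to all genes. At least 2-fold higher were 22 and at least 2-fold lower none, against the 3.26% and 1.73% of all measured genes. Summed over the list, a G2VInt cell had 830 CPM at the lowest, 9490.9 at the median and 22557 at the highest, and a G2VLo cell 540, 3798.1 and 20143. The ranges overlapped almost entirely, while the medians differed by more than 2-fold. In cells thinned to equal depth, a median of 54 of the measured members had a read in G2VInt (14 to 58) and 37.5 in G2VLo (5 to 58). Both gates thus held cells with nearly all members read and cells with few, and the G2VLo gate held more of the latter.

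**Figure D2:**
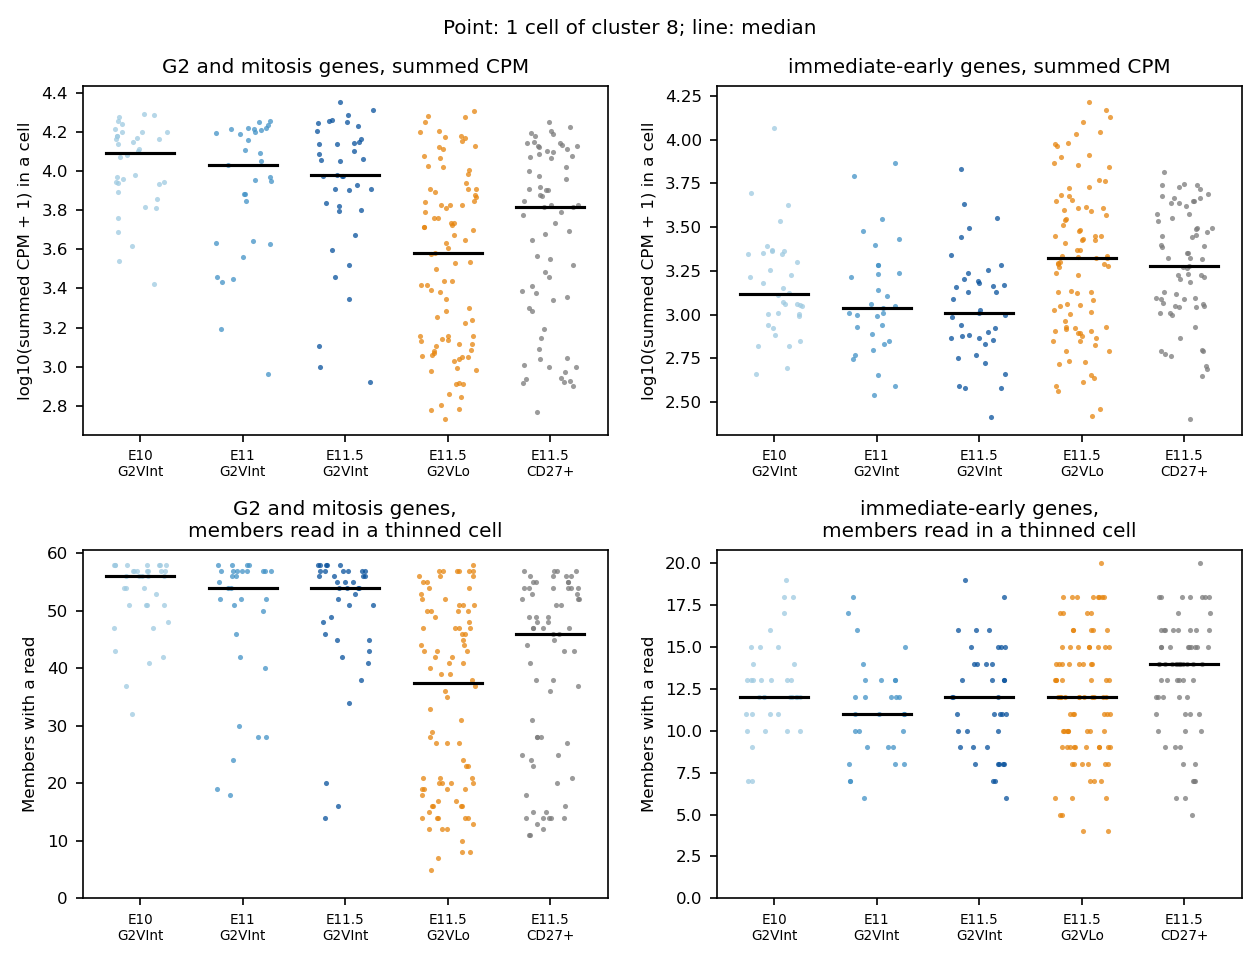
Top, the summed CPM of the G2 and mitosis genes (left) and the immediate-early genes (right) in each cell of cluster 8, as log10(CPM + 1); bottom, how many members of each list had a read after thinning each cell to 100000 reads. Points are cells, grouped by day and gate, and lines are medians. The G2 and mitosis median is 9490.9 CPM in E11.5 G2VInt and 3798.1 in G2VLo cells, and the immediate-early median 1015.0 and 2105.0.

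Nek2, a kinase that separates the centrosomes, had the second highest ratio of the list (ENSMUSG00000026622; GRCm38 chromosome 1, 191821444 to 191833050, plus strand; its promoter is printed above). Its CPM in a cell was 0 at the lowest, 64.5 at the median and 388 at the highest in G2VInt, and 0, 0 and 254 in G2VLo. The ranges overlapped, and more G2VLo cells were without a read. Summed, Nek2 had 110 CPM (107 to 112) in G2VInt against 32.8 CPM (31.1 to 34.5) in G2VLo, 3.36-fold higher (3.17 to 3.55). After thinning, 74.4% (57.9 to 87.0) and 39.1% (29.1 to 49.9) of the cells had a read in G2VInt and G2VLo, and before thinning in 87.2% and 43.5%. Pif1, a DNA helicase, had 41.3 against 11.4 CPM (ratio 3.63, 3.30 to 4.00) and was read in 61.5% and 13.0% of thinned cells.

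Kinesins and kinetochore proteins differed in the same direction. Kif2c, which takes apart microtubule ends at the kinetochore, had 129 against 49.8 CPM (ratio 2.58, 2.47 to 2.71), with a median cell at 107 and 2.91. Kif4, a chromosome-bound kinesin encoded on the X chromosome, had 81.7 against 32.2 CPM (ratio 2.54, 2.39 to 2.69), and Kif18b, a plus-end motor, 39.1 against 15.9 (2.46, 2.27 to 2.68). Cenpa, the histone H3 variant of centromeres, had 447 against 202 CPM (2.22, 2.16 to 2.27) and was read in 94.9% and 87.0% of thinned cells. Its difference therefore lay mostly in the level per cell, with a median cell at 381 and 116 CPM, rather than in the number of cells with a read.

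Among the kinases, cyclins and regulators of mitosis, some members were past 2-fold and others were not. Aurka, the centrosomal Aurora kinase, had 273 against 114 CPM (ratio 2.40, 2.33 to 2.48), with a median cell at 205 and 57.6. Plk1, the Polo-like kinase, had 335 against 140 CPM (2.39, 2.32 to 2.45), with a median cell at 223 and 6.38. Cdc20, which activates the anaphase-promoting complex, had 560 against 254 CPM (2.20, 2.15 to 2.25). Cyclin B1 (Ccnb1) stood just past the limit, with 161 against 79.6 CPM and a log2 ratio of 1.02, and lay below it with TMM scaling (0.91). Inside the limit were Mki67, the common proliferation marker, with 332 against 189 CPM (1.76-fold), and the checkpoint kinase Bub1 with 104 against 70.9 (1.47-fold). The 1 measured member below the median of all genes was Kif20b, with 70.8 and 70.9 CPM.

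The size of the mitotic difference depended on the library numbers, and its direction did not. Only the cells with the lower G2VInt numbers (20 cells) gave a list median of 0.89, with 33 of 58 members at least 2-fold higher. Only those with the upper numbers (19 cells) gave 0.40, with 5 of 58. Of all measured genes, 439 of 9835 were at least 2-fold higher with the lower numbers and 596 of 9965 with the upper numbers. Summed CPM had a median of 13196.1 in the former cells and 8078.2 in the latter. G2VLo cells with numbers below and above the block of CD27+ cells had 3736.7 (62 cells) and 3798.1 (30 cells). Both parts of G2VInt thus lay above both parts of G2VLo. No member was 2-fold lower in any of the 12 alternatives.

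Among the sets of cluster 8, the median of the mitotic list was lowest in the G2VLo cells. The summed CPM of the mitotic list had a median of 12383.5 in the E10 and 10699.5 in the E11 cells of cluster 8, and of 6533.7 in the CD27+ cells. The CD27+ cells, at a median depth of 597733 reads close to that of G2VLo, lay between the 2 gates. Nek2 had 64.4 CPM at E10, 78.3 at E11 and 38.7 in CD27+ cells. In cluster 7, where 4.36% of 9952 measured genes were at least 2-fold higher and 1.22% at least 2-fold lower in G2VInt, the same list had a relative median of 0.72 with 21 of 58 members past 2-fold, and the median cell had 7039.8 against 2864.9 CPM. Cluster 7 shares its gates and library blocks with cluster 8, so these values are no independent check.

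Genes of S phase did not share this difference. All 48 listed genes were measured; 8 lay above and 40 below the median of all genes, and their relative median was -0.25. The shift was smaller under several alternatives and larger under others. With the mean of single cells 19 lay above (-0.11), in thinned cells 19 (-0.07) and with the upper G2VInt numbers 17 (-0.11). With the lower G2VInt numbers 5 lay above (-0.40), and 6 were at least 2-fold lower, against 350 of 9835 measured genes. Against the G2VLo cells below the CD27+ numbers 7 lay above (-0.32). In all cells none was 2-fold higher in G2VInt, and 1 was 2-fold lower, Ccne2 (cyclin E2), with 23.7 against 52.8 CPM (0.448 times). The related cyclin Ccne1 (cyclin E1) had 43.2 against 80.5 CPM, with a median cell at 1.17 and 42.8. The replication licensing factor Cdc6 had 43.0 against 77.9. Ung, a uracil glycosylase used at replication forks, had 68.0 against 117 CPM. A read of Ccne1 was found in 43.6% of thinned G2VInt cells and 64.1% of G2VLo cells, the reverse of the mitotic genes. In cluster 7 the S phase list stood at 0.07, with Ccne1 0.80 on the log2 scale and in the opposite direction.

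Other regulators of the cell cycle were mixed. Of 16 D cyclins, kinases and inhibitors 11 were measured, with a relative median of -0.43 and 1 past 2-fold (0.04 in cluster 7). This was Cdkn1a, the inhibitor p21, with 9.33 against 26.5 CPM, but 47.5% of its G2VInt reads were in 1 cell, and the log2 ratio of -1.51 became -0.76 against the G2VLo cells below the CD27+ numbers. Cyclin D1 (Ccnd1) had 30.1 against 57.8 CPM. Cdkn1c, the inhibitor p57, had 125 against 175 CPM, and its median cell 110 and 106. A lower total thus went with an even median for this gene.

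Immediate-early genes, which answer within minutes to growth factors, stress or tissue dissociation, were lower in G2VInt. Of 30 listed genes 20 were measured, and 18 of these lay below the median of all genes. Their relative median was -1.0. At least 2-fold lower were 9 and at least 2-fold higher none, against the 1.73% and 3.26% of all measured genes. Summed over the list, a G2VInt cell had 259 CPM at the lowest, 1015.0 at the median and 6796 at the highest, and a G2VLo cell 263, 2105.0 and 16405. The gates overlapped at the low end, and the highest G2VLo cells lay above every G2VInt cell. The number of members read in a thinned cell had a median of 12 in each gate, with upper quartiles of 14 and 15, and medians of 11 and 14 in the G2VLo cells below and above the CD27+ numbers.

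Nr4a1, an orphan nuclear receptor (ENSMUSG00000023034; chromosome 15, 101254269 to 101274795, plus strand), had the lowest ratio of the list. A G2VInt cell had 0, 12.2 and 2372 CPM (lowest, median and highest) and a G2VLo cell 0, 47.3 and 5030. The gates overlapped over most of their range. Summed, Nr4a1 had 74.4 CPM in G2VInt and 477 in G2VLo, 6.41-fold lower (6.21 to 6.61), but the share of thinned cells with a read was nearly even, 53.8% (37.2 to 69.9) and 62.0% (51.2 to 71.9). The log2 ratio of -2.68 was -2.03 with the lower and -4.75 with the upper G2VInt numbers. Its relative Nr4a2 had 18.97 against 57.4 CPM (3.03-fold lower).

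Parts of the AP-1 transcription factor differed unevenly. Fos (ENSMUSG00000021250; chromosome 12, 85473890 to 85477273, plus strand) had 0, 1.31 and 256 CPM in a G2VInt cell and 0, 1.91 and 2317 in a G2VLo cell. Its medians were alike, and the difference lay in a minority of high G2VLo cells. Summed, it had 24.3 against 123 CPM, 5.05-fold lower (4.78 to 5.34); 1 cell held 45.2% of the G2VInt reads, and without the highest cell of each gate the log2 ratio went from -2.34 to -2.73. Junb had 22.1 against 46.4 CPM (2.10-fold lower). Jun stayed inside 2-fold with 353 against 648 CPM, where 1 cell held 49.0% of the G2VInt reads and the log2 ratio went from -0.88 to -1.74 without the highest cells.

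Feedback regulators of the same response, which damp signalling or break down the transcripts, were lower as well. Btg2, an antiproliferative adaptor of mRNA decay (ENSMUSG00000020423; chromosome 1, 134075170 to 134079120, minus strand), had 0, 24.7 and 174 CPM in a G2VInt cell and 0, 25.7 and 2787 in a G2VLo cell. Medians were even again, and the highest G2VLo cell lay more than 10 times above the highest G2VInt cell. Summed, Btg2 had 38.6 against 151 CPM, 3.92-fold lower (3.74 to 4.10), with log2 ratios between -1.77 and -2.29 in the 4 parts by library number. Dusp1, a phosphatase of MAP kinases, had 56.3 against 132 CPM (2.35-fold lower), with a median cell at 37.2 and 76.0. Zfp36, which marks transcripts for decay, had 36.9 against 75.5 CPM (2.04-fold lower).

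Among the Krüppel-like factors, Klf6 had 45.0 against 132 CPM (2.94-fold lower), with a median cell at 24.4 and 75.6, and Klf2 7.69 against 24.5 (3.19-fold lower). Klf6 and Dusp1 were thus lower in the median cell as well, unlike Fos and Btg2. Myc was inside 2-fold, with 119 against 204 CPM and a median cell at 76.9 and 118. Ier2 was near even, with 280 against 262 CPM. Membership of the list therefore did not fix the size of the difference.

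The immediate-early difference also moved with the library numbers. Its relative median was -0.88 against G2VLo cells below the block of CD27+ numbers and -1.59 against those above it, and summed CPM had medians of 1547.9 and 3570.8 in these 2 parts. The lower and the upper G2VInt numbers gave 1201.3 and 999.0. Median depth was 515685.5 reads in the former G2VLo cells and 320375 in the latter. The median cell had 1305.6 CPM at E10, 1083.9 at E11 and 1884.9 among CD27+ cells. Within cluster 8 the medians of the G2VInt cells of all 3 days thus lay below those of the G2VLo and CD27+ cells. In cluster 7 the medians were closer, 955.8 CPM in G2VInt and 1160.5 in G2VLo, the latter below the G2VInt cells of cluster 8 at E10. Whether handling during the sort had a part in this was not tested. In cluster 7 the list had a relative median of -1.05, with Btg2 at -2.06 and Fos at -1.76 on the log2 scale but Nr4a1 at -0.24 and Nr4a2 at 0.98.

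Heat-shock and chaperone genes stood on the same side. All 16 were measured and all 16 lay below the median of all genes, at a relative median of -0.57 (-0.88 in cluster 7), with 1 past 2-fold. Hsp90aa1, the inducible cytosolic chaperone, had 412 against 748 CPM and a median cell at 283 and 623. Hsph1, a chaperone of the Hsp110 family, had 177 against 324 CPM. Hspa1b, an inducible Hsp70, was the member past 2-fold, with 4.44 against 10.8 CPM. The 8 measured transcripts of the mitochondrial genome had a relative median of -0.60, for example mt-Co1 with 3559 against 5374 CPM, while the 29 nuclear genes of the respiratory chain stood at 0.12.

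**Figure D3:**
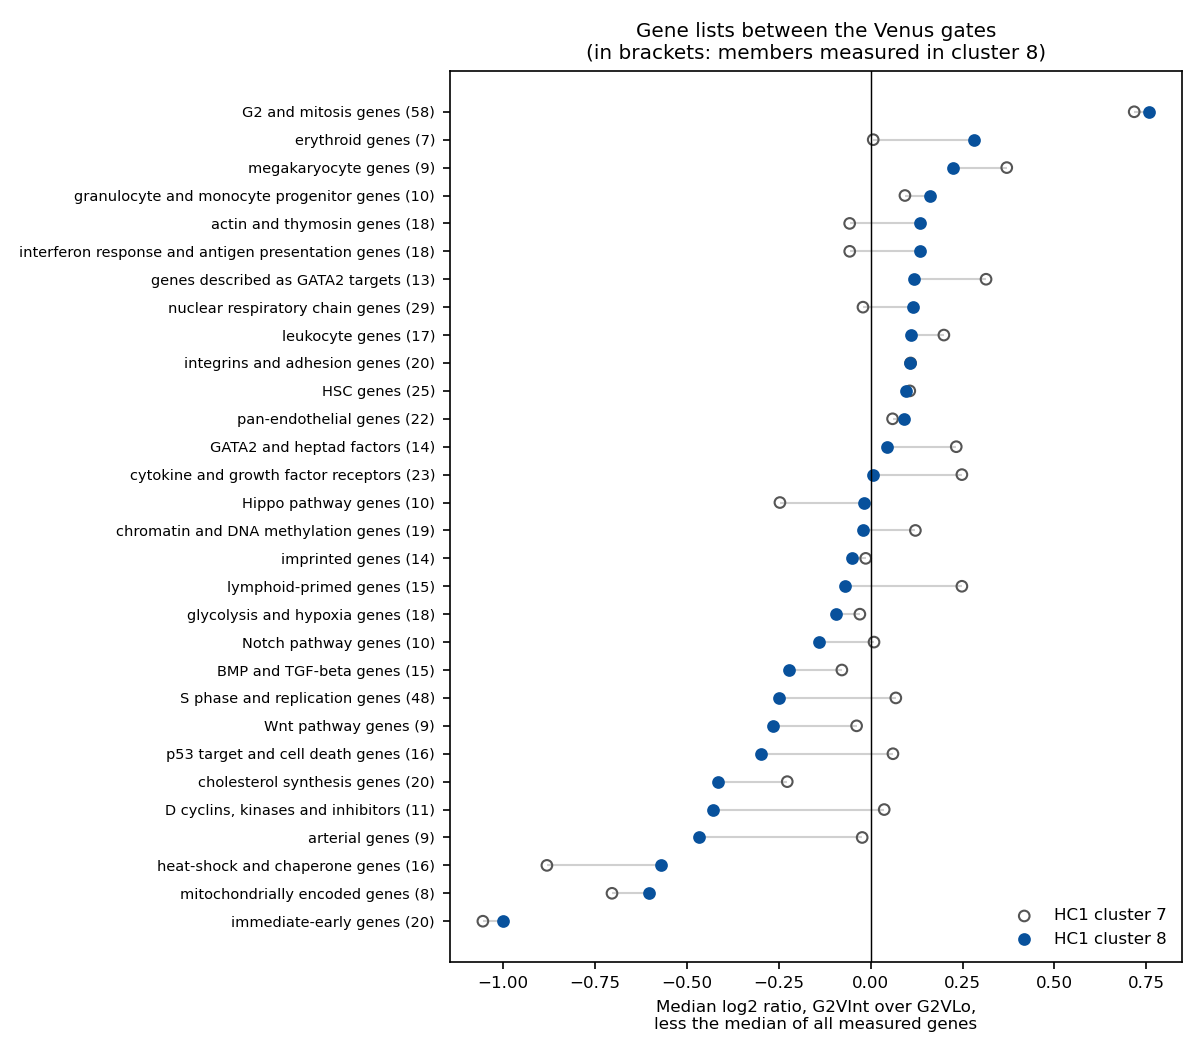
Median log2 ratio of each gene list, G2VInt over G2VLo, less the median of all measured genes, in HC1 cluster 8 (filled) and HC1 cluster 7 (open); lists with at least 5 measured members in both clusters are shown, with the number measured in cluster 8 in brackets. The G2 and mitosis list stands highest at 0.76 and the immediate-early list lowest at -1.0, and most other lists lie between -0.50 and 0.30.

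Among genes with a name, a read in 20% or more of the thinned cells of the higher gate and a ratio past 1.5-fold in every part by library number, the highest ratio was that of Reln, which encodes the secreted glycoprotein reelin (ENSMUSG00000042453; chromosome 5, 21884454 to 22344702, minus strand). A G2VInt cell had 2.73, 12.8 and 30.8 CPM (lowest, median and highest) and a G2VLo cell 0, 0 and 5.75. Every G2VInt cell had a read, against 3.26% of G2VLo cells. Summed, it had 11.49 CPM against 0.0912 (4 reads), a ratio of 126 (49.0 to 464), and after thinning a read was found in 71.8% and 2.17% of cells. The number of Reln reads in a G2VInt cell, from 9 to 37 with a median of 19, did not follow the depth of the cell (rank correlation of reads with the total 0.12 over the 39 cells, and of CPM with the total -0.77). Reln stood at 0.0271 CPM at E10 and 0.0235 at E11, and no read was seen in the CD27+ cells (3 reads would be 0.0701 CPM). In cluster 7 it was 13.4 CPM in G2VInt and 0.0318 in G2VLo. Reln reads thus marked the library block of the E11.5 G2VInt cells in both clusters, and whether they come from these cells was not tested.

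Tmsb10, a thymosin that binds actin monomers (ENSMUSG00000079523; chromosome 6, 72957347 to 72958748, minus strand), also separated the gates in most cells. A G2VInt cell had 18.97, 42.5 and 148 CPM and a G2VLo cell 0, 9.50 and 29.4. The median G2VInt cell lay above every G2VLo cell. Summed, Tmsb10 had 47.6 against 11.2 CPM, a ratio of 4.24 (3.86 to 4.67), with log2 ratios between 1.80 and 2.39 in the 4 parts by library number. Its reads did follow the depth of a cell at E11.5 in G2VInt (rank correlation 0.83) and in G2VLo (0.56). The correlation was lower at E10 (0.17), at E11 (0.39) and in CD27+ cells (0.33). Tmsb10 stood at 31.8 CPM at E10 and 23.4 at E11 in cluster 8, at 12.6 in CD27+ cells, and at 38.2 against 10.0 in cluster 7. Summed levels were thus low in the sets with numbers in the range of G2VLo, although 1 CD27+ cell had 53.6 CPM. Other genes of its list, such as Cfl1 (cofilin, 962 against 632 CPM) and Actb (14192 against 16302), stayed inside 2-fold.

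**Figure D4:**
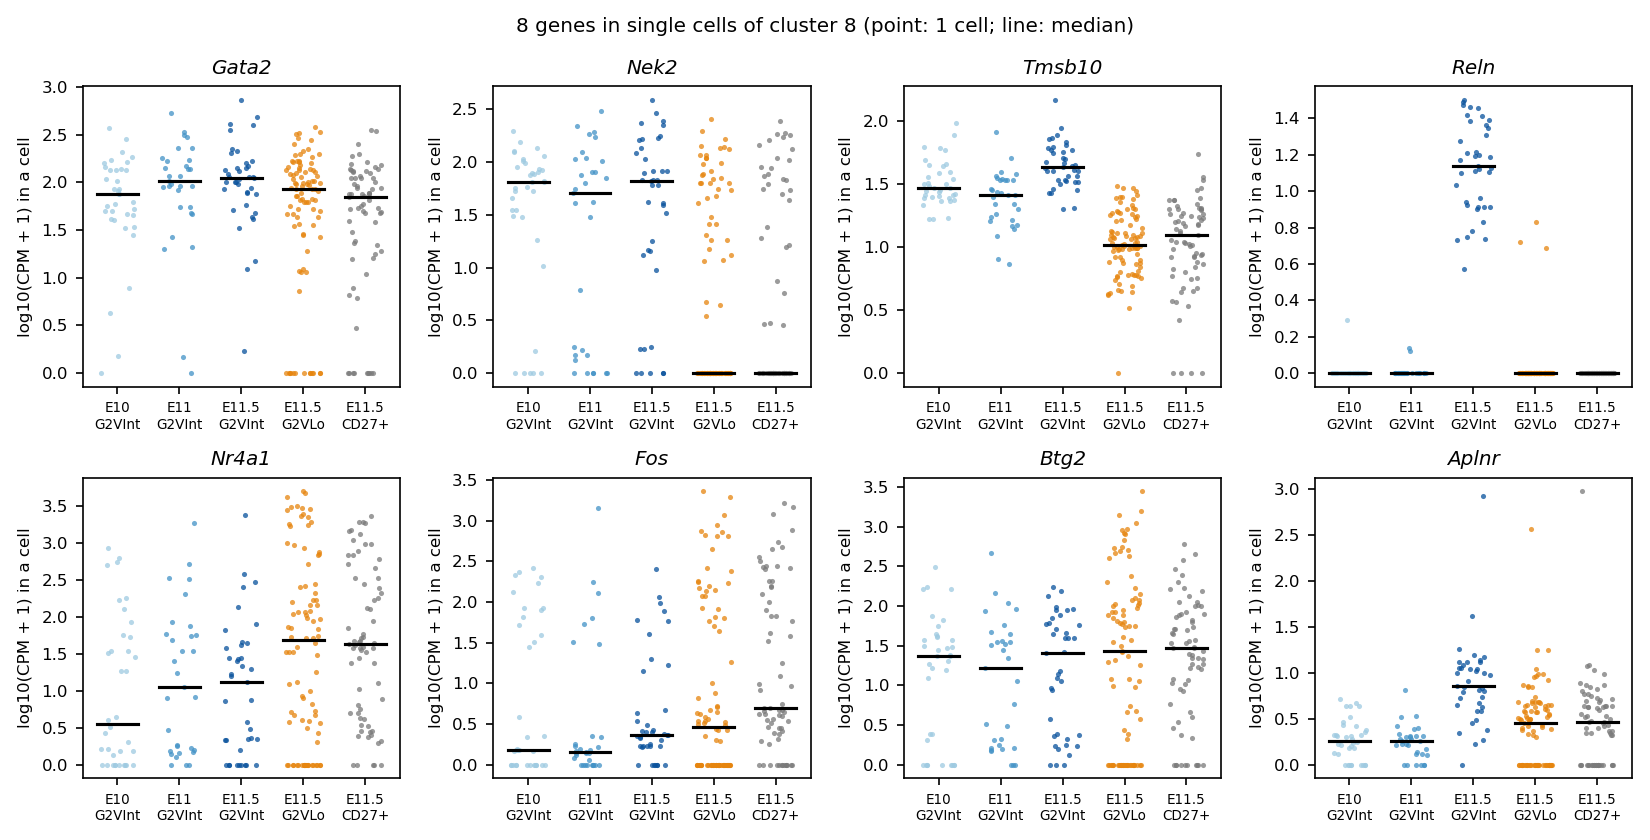
Level of 8 genes in each cell of cluster 8, as log10(CPM + 1), for 5 groups by day and gate; points are cells and lines medians. Reln is read in every E11.5 G2VInt cell and hardly elsewhere, the median of Tmsb10 is 42.5 CPM in E11.5 G2VInt and 9.50 in G2VLo cells, and Fos and Btg2 have even medians with high G2VLo cells.

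The other genes with the highest ratios were read in fewer cells and mostly at low levels. Aplnr, the apelin receptor of veins and early endothelium, had 28.3 against 3.65 CPM, but 1 cell held 79.4% of its G2VInt reads, and without the highest cells the log2 ratio went from 2.96 to 1.43. The rank correlation of Aplnr reads with the total was 0.14 in G2VInt and 0.12 in G2VLo (of CPM with the total -0.51 and -0.14). A median cell had 9 Aplnr reads in G2VInt, 1 in G2VLo, 2 at E10, 2 at E11 and 1 in CD27+ cells. In cluster 7 it had 8 in G2VInt and 1 in G2VLo. Whether the low counts come from these cells was not tested. Tmem88, a membrane protein that restrains Wnt signalling, had 13.0 against 1.89 CPM, and 1 cell held 58.3% of its G2VInt reads (log2 ratio 2.78, and 2.14 without the highest cells). Atxn1l, a transcriptional corepressor, had 38.2 against 10.3 CPM (3.72-fold) and was read in 64.1% and 27.2% of thinned cells. Slc35f6, a membrane transporter, had 37.9 against 10.5 CPM (3.61-fold), and Nynrin 10.5 against 2.87 (3.67-fold), with a median cell at 4.84 and 0. Crispld1, Ghdc, Snx32, Il1rl2, Usp32, Tmem144 and Plcb1 completed the 15 highest, with ratios from 3.59 (Plcb1) to 6.07 (Tmem144). They had between 10.4 and 18.9 CPM in G2VInt and between 1.78 and 5.06 in G2VLo.

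The lowest ratios beside those of immediate-early genes included Adamts1, Acta2, Hmox1 and Itgal. Adamts1, a secreted metalloprotease, had 3.99 against 36.9 CPM, 9.25-fold lower (8.11 to 10.6), with a highest cell of 56.8 in G2VInt and 1292 in G2VLo. Acta2, smooth muscle actin, had 10.9 against 87.1 CPM (8.01-fold lower), with 36.5% of the G2VLo reads in 1 cell, and in cluster 7 it had 423 against 370. Hmox1, the stress-induced heme oxygenase, had 7.04 against 41.3 CPM (5.86-fold lower). Itgal, the alpha chain of the integrin LFA-1, had 2.11 against 12.0 CPM (5.71-fold lower) and was read in 10.3% and 21.7% of thinned cells. All 4 were read in a minority of thinned cells of either gate.

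The other genes with the lowest ratios had varied roles. Nedd9, a scaffold of integrin signalling, had 6.78 against 27.9 CPM (4.12-fold lower), and Rasal3, a Ras GTPase-activating protein of blood cells, 5.84 against 21.1 (3.62-fold lower). Trib1, a pseudokinase that controls myeloid differentiation, had 3.52 against 13.5 CPM, and Gpr84, a receptor of myeloid cells, 5.23 against 18.8. Ptpn4, a tyrosine phosphatase, had 6.69 against 24.4 CPM and was read in 30.8% and 45.7% of thinned cells. Fam214a, Hs3st1 and Nabp1 were 5.49, 3.83 and 3.57-fold lower. Each of these genes was at least 1.5-fold lower in all 4 parts by library number, since the rule that named them asked for it.

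**Figure D5:**
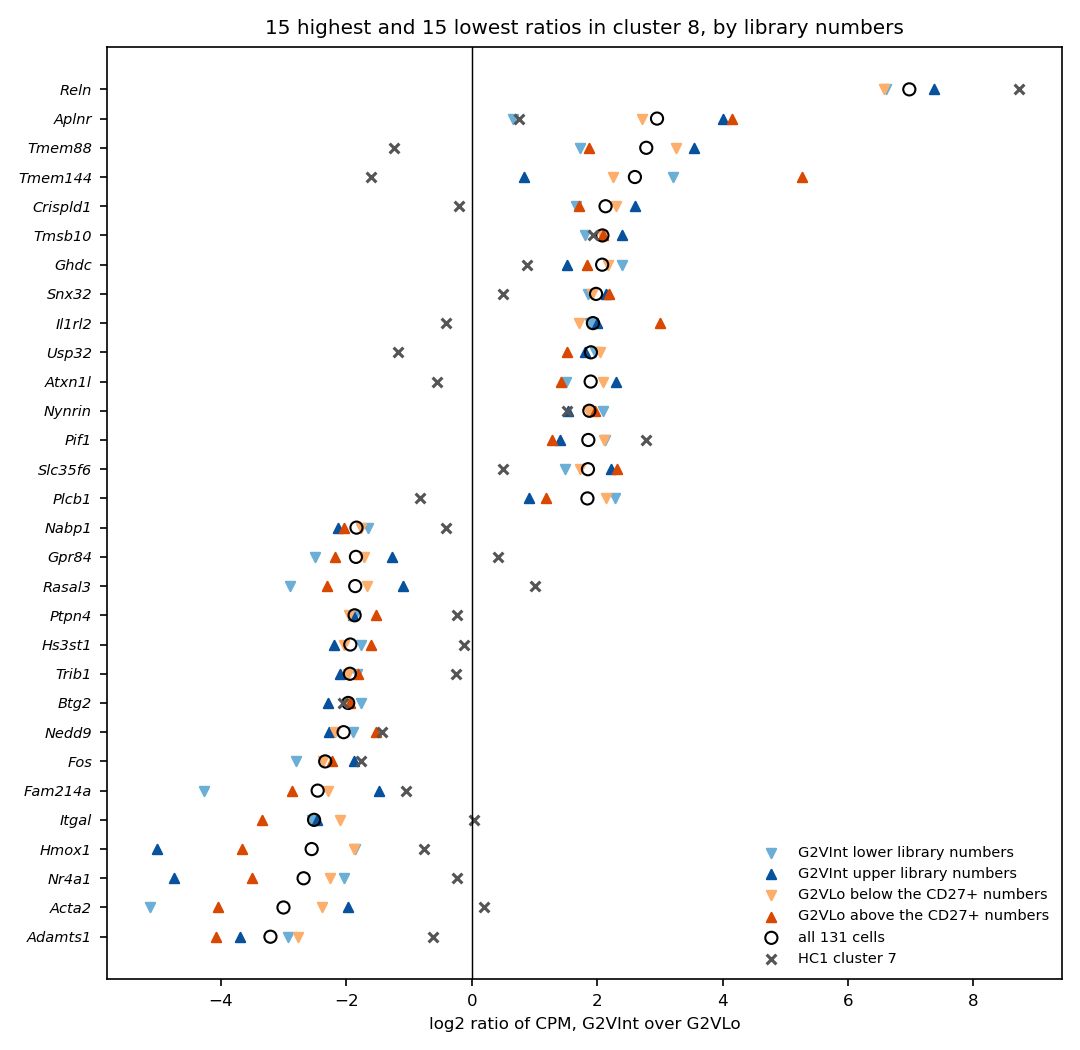
Log2 ratio, G2VInt over G2VLo, of the 15 highest and 15 lowest genes of HC1 cluster 8, for all 131 cells (circles), for each part by library number (triangles) and in HC1 cluster 7 (crosses). Tmsb10 and Btg2 have nearly the same ratio in every part and in cluster 7, whereas the ratio of Aplnr is 0.66 with the lower and 4.00 with the upper G2VInt numbers.

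Gata2 itself was higher in the gate with more Venus, within 2-fold (ENSMUSG00000015053; chromosome 6, 88193891 to 88207032, plus strand). A G2VInt cell had 0.691, 110 and 735 CPM and a G2VLo cell 0, 85.1 and 381. The ranges overlapped over all of the G2VLo cells with a read, and the medians were close. Summed, Gata2 had 174 against 95.8 CPM, a ratio of 1.81 (1.75 to 1.88), and was read in 94.9% (82.7 to 99.4) and 81.5% (72.1 to 88.8) of thinned cells. A single G2VInt cell held 21.2% of the reads; without the highest cells the log2 ratio of 0.86 was 0.62, and it was 0.50 in the cells that both clusterings of the authors place in a cluster 8. Gata2 stood at 102 CPM at E10, 123 at E11 and 84.6 in CD27+ cells, and at 290 against 166 in cluster 7.

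The proteins used in the sort differed little as transcripts. Kit had 587 against 542 CPM (1.08-fold, 1.06 to 1.10), with every cell of both gates read after thinning. Pecam1, which encodes CD31, had 243 against 212 CPM (1.15-fold) and stood at 541 and 489 in cluster 7. Cd27 had 160 against 112 CPM (1.43-fold, 1.38 to 1.48), with a median cell at 68.5 and 79.7. The sum and the median of Cd27 thus pointed in opposite directions, and 1 cell held 19.4% of its G2VInt reads.

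Transcription factors that work with GATA2 in stem and progenitor cells (the heptad and related genes) were close to the median of all genes. All 14 were measured, 7 above and 7 below it, at a relative median of 0.04. Zfpm1, the GATA cofactor FOG1, was the 1 past 2-fold, with 40.1 against 14.04 CPM (2.86-fold, 2.62 to 3.12) and a median cell at 26.2 and 8.92. Cbfa2t3, a corepressor in complexes with TAL1, had 121 against 72.8 CPM (1.66-fold). Runx1 was even, with 200 against 202 CPM, and so nearly was Spi1 (PU.1) with 448 against 363 (1.23-fold). Of 16 genes described as GATA2 targets 13 were measured, at a relative median of 0.12 with 2 past 2-fold, Zfpm1 and Gata1. Gata1, the erythroid and megakaryocytic GATA factor, had 16.4 against 0.137 CPM, but 98.9% of its G2VInt reads were in 1 cell, and the upper G2VInt numbers alone gave a log2 ratio of -0.36.

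Genes of HSCs did not separate the gates as a list. Of 28 genes 25 were measured, 13 above and 12 below the median of all genes, at a relative median of 0.10 (0.11 in cluster 7). Ly6a, which encodes the stem cell antigen Sca-1, had 24.6 against 11.4 CPM (2.15-fold, 1.94 to 2.38) and was read in 46.2% and 22.8% of thinned cells, and with the upper G2VInt numbers the log2 ratio of 1.10 was 0.26. The homeobox gene Nkx2-3 had 103 against 51.4 CPM (2.01-fold, 1.92 to 2.11; log2 0.90 with TMM scaling), with a median cell at 72.5 and 27.4. Prdm16 had 30.1 against 15.7 CPM. In the other direction, Procr, the endothelial protein C receptor of early HSCs, had 134 against 173 CPM (log2 ratio -0.37, and 0.39 against the G2VLo cells above the CD27+ numbers) and Hlf 77.3 against 86.6.

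Lymphoid-primed genes were alike, with 15 of 28 measured, a relative median of -0.07 and none past 2-fold. Of 26 cytokine and growth factor receptors 23 were measured, with 3 at least 2-fold higher and 1 at least 2-fold lower and a relative median of 0.01. Csf2ra, the alpha chain of the GM-CSF receptor, had 33.6 against 14.4 CPM (2.33-fold) with a median cell at 29.2 and 4.16, and the erythropoietin receptor Epor 10.3 against 4.47, where 1 cell held 62.2% of the G2VLo reads. Csf2rb, the shared beta chain, had 28.1 against 13.9 CPM and no excess with the lower G2VInt numbers (log2 ratio -0.06). Among integrins and adhesion genes, Selplg, the ligand of P-selectin, had 86.9 against 33.1 CPM (2.62-fold) and was read in 79.5% and 51.1% of thinned cells. Itgam, the alpha chain of Mac-1, had 36.2 against 15.6 CPM (2.32-fold). This list as a whole stood at 0.11, with 3 genes past 2-fold upward and Itgal downward.

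Genes of arteries and veins were read at low levels, and the direction of the arterial list depended on the library numbers. Of 15 arterial genes 9 were measured, 2 above and 7 below the median of all genes, at a relative median of -0.47. It was 0.07 with the upper G2VInt numbers and 0.12 against the G2VLo cells above the CD27+ numbers. Past 2-fold downward were 2 members, Gja5 (connexin 40) with 8.17 against 20.2 CPM and Dll4, a Notch ligand, with 7.93 against 17.5. Past 2-fold upward was 1 member, the receptor Notch4, with a log2 ratio of 1.28 that changed sign with the lower G2VInt numbers. Gja5 had a log2 ratio of -1.31 in all cells and 0.67 against the G2VLo cells above the CD27+ numbers. Of 7 venous genes 5 were measured, at 0.90, with Aplnr, Flt4 and Nrp2 past 2-fold. The limits given above for Aplnr apply here as well. Single cells held 55.5% of the G2VInt reads of Flt4 and 77.5% of those of Nrp2, and with the lower G2VInt numbers their log2 ratios of 1.34 and 1.04 were -1.18 and -1.52. Pan-endothelial genes, all 22 measured, stood at 0.09 with none past 2-fold in all cells. The direction of this list also moved with the library numbers. It was -0.24 with the lower G2VInt numbers (4 of 22 above the median) and 0.21 with the upper (17 of 22). With the upper numbers 4 members were at least 2-fold higher, against 596 of 9965 measured genes.

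Metabolic lists showed small shifts. Of 21 cholesterol synthesis genes 20 were measured, at a relative median of -0.42, with Mvd at 19.5 against 55.4 CPM (2.85-fold lower; median cell 2.80 and 28.1) and Hmgcs1, an early enzyme of the pathway, at 67.8 against 122. Cluster 7 stood at -0.23, with Mvd at -0.06 on the log2 scale. Glycolysis and hypoxia genes stood at -0.10 (18 of 20 measured), with the phosphofructokinase Pfkp at 45.0 against 19.8 CPM (2.27-fold). Of 22 p53 target and cell death genes 16 were measured, at -0.30, with 4 at least 2-fold lower (Btg2, Cdkn1a, Pmaip1 and Bcl2l11) and 1 higher. Pmaip1 and Bcl2l11, which promote apoptosis, had 5.20 against 16.4 and 7.98 against 23.1 CPM, and the former had a log2 ratio of -0.69 against the G2VLo cells below the CD27+ numbers in place of -1.66.

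Imprinted and chromatin genes were close to the rest of the transcriptome. Of 24 imprinted genes 14 were measured, at -0.05, with Gnas (11.0 against 3.99 CPM; read in 64.1% and 23.9% of thinned cells) and Mest past 2-fold. For Mest 1 cell held 67.9% of the G2VInt reads, and its log2 ratio of 1.41 was 0.25 without the highest cells. Chromatin and DNA methylation genes stood at -0.02 (19 of 21 measured), with none past 2-fold and Tet1, which oxidises methylated cytosine, at 56.4 against 32.0 CPM. Interferon response genes stood at 0.13 and Notch pathway genes at -0.14.

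Markers of blood cells and of other cell types were checked in both gates. Leukocyte genes were present throughout, with Ptprc (CD45) at 158 and 136 CPM and a list median of 0.11 over 17 of 19 measured genes. Granulocyte and monocyte progenitor genes stood at 0.16 (10 of 19 measured), with Mpo at 357 and 349 CPM, Elane at 0 and 0.433 and Ctsg without a read in either gate (3 reads would be 0.0455 CPM in G2VInt and 0.0684 in G2VLo). Of 15 macrophage genes 3 were measured, with summed levels of 52.7 CPM in G2VInt and 64.9 in G2VLo (single cells 0 to 263 and 0 to 542) and C1qa at 0.349 and 0.456. Of 19 erythroid genes 7 were measured, with summed levels of 640 CPM in G2VInt and 496 in G2VLo (single cells 148 to 2143 and 3.33 to 3217). Hba-a1, Hba-a2 and Slc4a1 had no read in either gate. Of 12 mast cell and basophil genes 2 were measured, with summed levels of 24.6 and 17.5 CPM (single cells 0 to 323 and 0 to 794). Fcer1a, Mcpt8, Cma1, Tpsb2 and Prss34 had no read in either gate. Mesenchymal genes summed to 39.3 and 118.9 CPM (single cells 1 to 138 and 0 to 3134), where Acta2 made up most of the G2VLo sum, and their part in the ratio of Acta2 was not tested. Megakaryocyte genes stood at 0.22 (9 of 16 measured), with Itga2b (CD41) at 78.8 and 74.3 CPM. Among epithelial genes 1 of 8 was measured and among germ cell genes 2 of 8. Of the cells in which sex could be called, 47.4% were male in G2VInt (18 of 38, 31.0 to 64.2) and 37.6% in G2VLo (32 of 85, 27.4 to 48.8).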

How the data were processed

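Messenger RNA was sequenced cell by cell on an Illumina HiSeq from Nextera XT libraries, per the labels' protocols. The authors deposited raw read counts per Ensembl gene; the build was GRCm38 and the counter HTSeq 0.6.0, per the submitters' processing notes, and the aligner, the annotation release and the strand setting are not given in the sources used here. Of the 46078 genes in the table, 45229 were matched to a symbol of the GENCODE annotation of the same build; the other 849 held 0.0973% of the reads. No 2 of the 401 cells used had identical columns.

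Reads were summed over the cells of a gate and scaled to CPM of all gene reads. No embryo, litter or sorting day is named in the labels; with 1 sample a gate no test was made. Shares of cells with a read were taken after thinning each cell to 100000 reads. Measured genes reached 10 CPM in 1 gate and were read there in no fewer than 5% of cells; "called" means past 2-fold. The procedure was tested on simulated counts with known fold changes. Python 3.11.15, numpy 2.4.6, pandas 2.3.3, scipy 1.17.1 and, for TMM factors, edgeR 4.0.16 in R 4.3.3 were used.

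Genes named are Gata2, Kit, Cd27 and Pecam1; the 15 highest and 15 lowest ratios among named genes whose higher gate had a read in 20% or more of its thinned cells, past 2-fold, and past 1.5-fold in the same direction in the mean of single cells, without the highest cells and in each part by library number; and up to 4 members of each of 37 lists (754 entries) farthest from the median. Pseudogenes, unnamed, mitochondrially encoded, ribosomal protein and sex-linked genes were passed over in the 15 and 15. Other genes (among them Aurka, Plk1, Cenpa, Kif18b, Cdc20, Ccnb1, Mki67, Bub1, Kif20b, Dusp1, Klf6 and Ier2) were chosen after their values were seen. The cells, gene lists and comparisons were chosen with earlier results of these data known. In total 12 alternatives were tried (scaling, thinning, filters, weight of cells, clustering, library numbers and the highest cells).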

Additional observations from a re-analysis of the deposited data

Results flagged for a closer look

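Among the named genes, 5 had a ratio between the gates past 2-fold in opposite directions in HC1 cluster 8 and HC1 cluster 7. Only named genes were screened for this, so 5 is not a count over all measured genes. These differences were not tested, since each gate is 1 sample, and both clusters come from the same library blocks. Tmem88, a membrane protein of Wnt signalling, had a log2 ratio (G2VInt over G2VLo) of 2.78 in cluster 8 and -1.25 in cluster 7, and 58.3% of its G2VInt reads in cluster 8 were in 1 cell. Tmem144, a membrane protein, had 2.60 and -1.61. The ubiquitin protease Usp32 had 1.90 and -1.18, with 18.9 against 5.06 CPM in cluster 8 and 6.30 against 14.3 in cluster 7. Rasal3, a Ras GTPase-activating protein, had -1.86 and 1.00. Ret, a receptor tyrosine kinase, had -1.21 and 1.19, with 4.76 against 11.0 CPM in cluster 8 and 59.0 against 25.9 in cluster 7; 72.6% of its G2VInt reads in cluster 8 were in 1 cell. Tmem88, Tmem144 and Rasal3 were below 10 CPM in both gates of cluster 7.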

How the results depend on the processing

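The gates differ in depth and library block, and 39 cells of 1 sample set the precision, so ratios of genes read in few cells are the least certain. In all 12 alternatives the relative median of the G2 and mitosis genes stayed positive and that of the immediate-early genes negative. The former was 0.86 with the mean of single cells, 0.82 in thinned cells, 0.73 with at least 50 CPM, 0.86 in cells that both clusterings place in cluster 8, 0.89 and 0.40 with the lower and upper G2VInt numbers, 0.81 and 0.67 against G2VLo cells below and above the CD27+ numbers and 0.80 without the highest cells. In the same order the latter was -1.16, -1.14, -1.11, -0.90, -0.91, -1.08, -0.88, -1.59 and -1.09; it was -0.98 scaled without mitochondrial reads and -1.08 from 1 CPM. Genes at least 2-fold higher numbered 64 with at least 50 CPM, 1298 from 1 CPM, 596 with the upper G2VInt numbers and 619 against G2VLo cells above the CD27+ numbers; genes at least 2-fold lower numbered 21, 1076, 323 and 300, 350 with the lower G2VInt numbers and 266 in both clusterings. The filters change which genes are tested, and the library parts use fewer cells; other causes were not tested. With the lower G2VInt numbers the log2 ratios of Csf2rb (-0.0648), Flt4 (-1.18), Hsd17b7 (-0.38), Mest (-0.11), Notch4 (-0.0049) and Nrp2 (-1.52) changed sign, as did Gata1 with the upper numbers (-0.36), Gja5 against G2VLo cells above the CD27+ numbers (0.67) and Nrp2 without the highest cells (-0.50). Of the ratios of named genes under an alternative, 1030 stayed within the counting interval of the main ratio, 1031 left it, and 9 that are past 2-fold in all cells changed sign. No paired analysis was possible because the labels give no replicate numbers that the gates share.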
